A study of Rattus norvegicus with 6 samples.

Results

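The nuclear genes of respiratory chain complexes I to IV and cytochrome c were followed in the renal cortex of rats given tricresyl phosphate, a phosphate ester added to plastics and lubricants. Members were the non-control probes whose accession maps to a nuclear gene with a symbol starting Ndufa, Ndufb, Ndufc, Ndufs, Ndufv, Sdha to Sdhd, Uqcr or Cox4 to Cox8, or named Cycs or Cyc1, without the assembly factors. This gave 62 genes, measured by 116 probes, out of 15645 gene symbols on the array. They comprised 60 subunit genes and 2 sequence copies, Ndufa10l1 and the pseudogene Cox6c-ps1, which were counted apart. Subunits divided into complex I with 30 genes, complex II with 4, complex III with 8, complex IV with 17 and cytochrome c with 1. Of the 71 subunit names that the rule finds in the gene table of assembly GRCr8, 11 were matched by no probe here, among them Cyc1, Cox7a1, Ndufa13 and Ndufa4l2.

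Each of the 6 animals was a male Sprague-Dawley rat, purchased when 5 weeks old and kept on a basal diet, and each was measured on its own 1-colour array. The 3 tricresyl phosphate animals received 200 mg/kg/day for 4 weeks. The 3 control animals received the vehicle, corn oil, for the same 4 weeks. The sources used here do not give the isomers in the compound.

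The respiratory chain passes electrons along the inner mitochondrial membrane and pumps protons. Complex I takes electrons from NADH and complex II takes them from succinate. Both hand them to ubiquinone, complex III moves them on to cytochrome c, and complex IV delivers them to oxygen. Proximal tubule cells, which make up most of the cortex, are rich in mitochondria and depend on this chain to drive reabsorption. Catalytic subunits of complexes I, III and IV are encoded partly in mitochondrial DNA. The other subunits, described here, come from the nucleus.

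Levels below are log2 processed signals relative to the 75th percentile of the same array, and differences are tricresyl phosphate minus corn oil on that log2 scale. The arrays had median processed signals of 102.6 to 133.2 over median local backgrounds of 33.0 to 41.0, and no spot was saturated. Corn oil replicate 1 was the only array on its slide, and the other 5 shared a slide and a scan. All 8 proximal tubule markers were well above background on every array. Levels of different probes are not set against each other. In this bulk tissue, fewer cells of a type and less RNA per cell cannot be told apart.

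Respiratory chain transcripts tended to lie slightly lower with tricresyl phosphate, by an amount that no single gene carried past the test. Of 60 subunit genes 59 had a probe well above background on at least 3 arrays, and the exception was Cox8c, the testis form of a small complex IV subunit, for which neither of its 2 probes was well above background on an array. Among the 59 tested genes 55 were lower and 4 higher at the 75th percentile scaling. Genes were split by mean level into 5 classes of equal size, and the brightest class holds 56 of the 59. Below 0 at this scaling were also 59.2% of all 31637 genes tested, and 76.0% of the brightest class. Under quantile normalization 36 of the 59 were lower, against 54.2% of all genes and 50.2% of the brightest class. At the 75th percentile scaling the median difference was −0.15, against −0.04 over all genes and −0.07 over the brightest class, and 47 of the 59 lay below that last value.

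No member passed an adjusted limma p under 0.05 in either direction, as for 0% of all genes, and the lowest adjusted p among members was 0.811. In simulated data with the same group sizes, 0 of 67 genes changed by 0.5 passed that threshold. Those genes were drawn from all genes tested, with a median residual SD of 0.17, against 0.12 in the members. The simulation therefore does not measure sensitivity for the members. Their differences are all smaller than 0.5, and the lack of passing genes cannot show that they are unchanged. At an unadjusted limma p under 0.05, 2 members were lower, or 3.39%, which is near the 3.86% of all genes and the 2.86% of the brightest class. With an intensity trend and robust variance in limma it was 10 members, or 16.9%, against 4.18% of all genes and 7.10% of the brightest class. None was higher at an unadjusted limma p under 0.05 in the main fit, against 1.63% of all genes and 18 of 6328 in the brightest class. All 3 tricresyl phosphate animals lay below all 3 corn oil animals in 11 members, or 18.6%, against 7.94% of all genes and 12.6% of the brightest class. The opposite separation was seen in 0 members and in 3.85% of all genes. Differences ranged from −0.33 for Ndufb3 to 0.21 for Cox6a2.

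**Figure D1:**
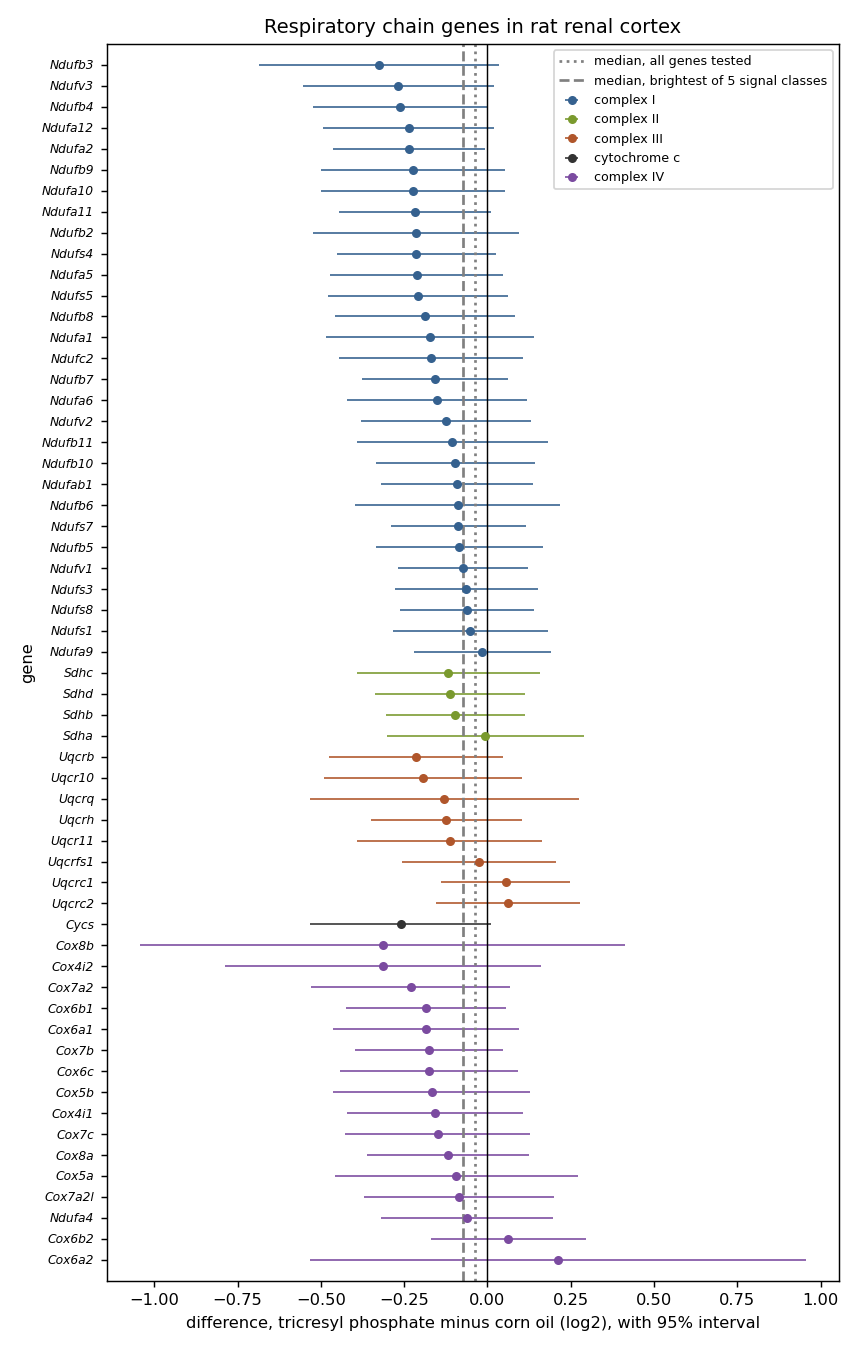
Difference between tricresyl phosphate and corn oil animals (log2, horizontal axis) for 58 tested subunit genes (vertical axis), with 95% intervals from limma at the 75th percentile scaling; colours mark the complex and vertical lines mark 0 and the medians of all genes and of the brightest class of genes. At this scaling 54 of the 58 points lie left of 0, while 36 of all 59 tested genes were lower under quantile normalization, and all intervals but those of Ndufa2 and Ndufb4 cross 0.

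Complex I held the members with the smallest p. All 30 of its tested genes were lower at the 75th percentile scaling by their brightest probe, with a median of −0.16. With the mean of each gene's probes 28 were lower and 2 higher, and 12 of the 30 were higher under quantile normalization. Ndufa2, an accessory subunit of the matrix arm that carries electrons from NADH, was at 3.88, 3.72 and 3.72 in the tricresyl phosphate animals, against 4.10, 3.97 and 3.95 in the corn oil animals. The groups did not overlap, and tricresyl phosphate replicate 1 came nearest to the corn oil range. The group means differed by −0.24 ± 0.09 (SE), or 0.85-fold, with an adjusted limma p of 0.811 and a 95% interval of −0.46 to −0.01. Both probes of the gene gave this direction.

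Ndufb4, an accessory subunit of the proton-pumping membrane arm, measured 7.03, 6.78 and 6.82 in the tricresyl phosphate animals, against 7.25, 7.07 and 7.10 in the corn oil animals. The groups lay apart by a narrow margin, with tricresyl phosphate replicate 1 just under corn oil replicate 2. Its difference came to −0.26 ± 0.11 (SE), at an adjusted limma p of 0.811, and all 3 of its probes were lower. The gene table names 11 copies of Ndufb4, 7 of them pseudogenes, so its probes may bind related transcripts.

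Ndufa11, a membrane-arm accessory subunit, stood at 3.83, 3.63 and 3.73 with tricresyl phosphate, against 4.02, 3.92 and 3.89 with corn oil. Ndufa12, a matrix-arm accessory subunit, stood at 6.53, 6.28 and 6.34 with tricresyl phosphate, against 6.72, 6.54 and 6.59 with corn oil. In both genes every tricresyl phosphate value lay under every corn oil value, again closest in tricresyl phosphate replicate 1. Their differences were −0.22 ± 0.09 (SE) and −0.24 ± 0.11 (SE), each with an adjusted limma p of 0.811. Ndufv3, an accessory subunit of the NADH-binding module, showed 6.78, 6.52 and 6.46 with tricresyl phosphate, against 6.97, 6.83 and 6.76 with corn oil, and its groups overlapped. Its difference was −0.27 ± 0.12 (SE), while its 4 probes ranged from −0.27 to 0.04. Ndufb3, a small membrane-arm subunit, had the lowest difference of all members, −0.33 ± 0.15 (SE), with overlapping groups. Its levels were 7.004, 6.57 and 6.68 with tricresyl phosphate, against 7.25, 7.03 and 6.95 with corn oil, and tricresyl phosphate replicate 1 again lay inside the corn oil range. Ndufa5 and Ndufb7, accessory subunits of the matrix and membrane arms, separated the groups only by a very narrow margin. Tricresyl phosphate replicate 1 was at 6.948 against 6.955 in corn oil replicate 3 for Ndufa5, and at 5.129 against 5.131 for Ndufb7. Ndufa5 had 6.95, 6.83 and 6.84 with tricresyl phosphate, against 7.25, 7.05 and 6.95 with corn oil. Ndufb7 had 5.13, 4.96 and 4.99 with tricresyl phosphate, against 5.24, 5.17 and 5.13 with corn oil, and both of its probes separated the groups. Their differences were −0.21 ± 0.11 (SE) and −0.16 ± 0.09 (SE).

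Upstream sequences are shown for 4 of the 11 members whose tricresyl phosphate values all lay below the corn oil values. They are examples and do not stand for the 11. Upstream sequence is the place where factors that regulate respiratory genes are known to act. The printed stretches are the 250 bases before the gene start, 5′ to 3′ on the gene's strand, from RefSeq on assembly GRCr8. Capitals mark letters that match a searched motif: the consensus of NRF1, CCGGAAG for ETS factors such as GABPA, or AANATGGC for YY1, on either strand.
Ndufa12 (chr7:30658066-30658315, plus strand): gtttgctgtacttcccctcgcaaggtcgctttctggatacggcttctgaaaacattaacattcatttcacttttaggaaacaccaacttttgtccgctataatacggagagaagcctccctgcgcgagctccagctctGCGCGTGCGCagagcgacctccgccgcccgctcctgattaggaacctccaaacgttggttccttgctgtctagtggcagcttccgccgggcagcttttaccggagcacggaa
Ndufa2 (chr18:28631885-28632134, minus strand): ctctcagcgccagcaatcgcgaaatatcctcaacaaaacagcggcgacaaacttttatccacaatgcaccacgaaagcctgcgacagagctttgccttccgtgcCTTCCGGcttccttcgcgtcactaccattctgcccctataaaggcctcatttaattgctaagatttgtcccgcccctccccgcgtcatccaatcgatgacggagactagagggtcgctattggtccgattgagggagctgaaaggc
Cox7b (chrX:75148786-75149035, plus strand): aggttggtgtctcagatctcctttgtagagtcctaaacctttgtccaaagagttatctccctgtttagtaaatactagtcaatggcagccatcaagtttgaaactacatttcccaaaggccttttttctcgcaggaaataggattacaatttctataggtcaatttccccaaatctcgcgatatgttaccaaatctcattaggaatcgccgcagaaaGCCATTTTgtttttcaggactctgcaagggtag
Cycs (chr4:80984768-80985017, minus strand): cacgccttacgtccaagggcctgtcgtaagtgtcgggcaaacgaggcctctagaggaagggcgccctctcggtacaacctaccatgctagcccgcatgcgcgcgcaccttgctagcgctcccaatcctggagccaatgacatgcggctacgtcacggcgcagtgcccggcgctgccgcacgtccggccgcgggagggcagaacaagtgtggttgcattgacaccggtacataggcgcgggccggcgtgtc
The Ndufa12 stretch holds the NRF1 letters, that of Ndufa2 the ETS letters and that of Cox7b the YY1 letters, while the Cycs stretch matches none of the 3 searched strings. Among the separated members not shown, the stretches of Ndufa11 and Ndufa5 hold the NRF1 letters and that of Ndufb7 the ETS letters. Those of Ndufb4, Ndufs4, Ndufa10 and Cox6b1 match none. Only exact matches were counted, so a stretch without a match can still hold a site. The Cycs stretch holds ccgcatgcgc, which departs from the NRF1 string only in its first letter. Of the 60 subunit genes 53 have a promoter entry, with 250 bases before and 50 after the start. The NRF1 letters occur in 8 of the 53, or 15.1%, against 5.67% of 21851 promoters of protein-coding genes and 11.2% of 3015 promoters of genes in the brightest class. ETS letters occur in 15, or 28.3%, against 10.74% and 20.2%, and YY1 letters in 17, or 32.1%, against 7.67% and 10.9%. The last letters of the ETS string, AAG, can be the first of the YY1 string, so 1 stretch can match both, and a match is a description of letters only. At least 1 string occurs in 18 of 28 promoters of complex I, 4 of 4 of complex II, 5 of 6 of complex III and 5 of 14 of complex IV. Over all 53 promoters that is 60.4%, against 21.1% of protein-coding genes and 35.8% of the brightest class, while complex IV, at 35.7%, is at the level of the brightest class.

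The members of complex I did not all lie equally low. The 7 nuclear core subunits, among them the carriers of the flavin and the iron-sulfur clusters, had a median difference of −0.06, and 3 of them lay below the median of the brightest class. The 23 accessory subunits had a median of −0.21, and 22 of them lay below that value. This split was drawn from known function after the values were seen, and it received no test. Under quantile normalization the median of the core subunits turned to 0.03, that of the accessory subunits was −0.09, and on the shared slide they were −0.04 and −0.13. Without tricresyl phosphate replicate 1 they were −0.10 and −0.26. Of the 11 members whose groups lay apart, 8 were accessory subunits of complex I, with very narrow margins in Ndufa5 and Ndufb7. These 8 were 34.8% of the 23, against 12.6% of the brightest class and 7.94% of all genes. Core subunits held 0 of the 11, and 7 genes are too few to set against those shares. The core subunits Ndufs1 and Ndufs7 each had a dimmer probe that was higher with tricresyl phosphate, at 0.12 and 0.11.

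Ndufs4, an accessory subunit needed late in assembly, had probes that disagreed. Its brighter probe was at 4.17, 3.95 and 4.08 with tricresyl phosphate, against 4.36, 4.29 and 4.20 with corn oil, a difference of −0.21 ± 0.10 (SE). Its dimmer probe showed −1.07, −1.10 and −1.09 with tricresyl phosphate, against −1.35, −1.19 and −1.31 with corn oil. Neither probe's groups overlapped, and their signs were opposite, at −0.21 and 0.20.

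Complex II, which also serves the citric acid cycle, showed small differences in all 4 genes. Sdha, the flavoprotein that oxidises succinate, was at 6.998, 6.95 and 7.001 with tricresyl phosphate, against 7.22, 6.83 and 6.92 with corn oil. The corn oil animals enclosed the tricresyl phosphate animals, and the difference of −0.01 ± 0.12 (SE) turned positive under quantile, normexp and cyclic loess scaling and on the shared slide. Sdhb, the iron-sulfur subunit, had 5.36, 5.23 and 5.21 with tricresyl phosphate, against 5.40, 5.37 and 5.32 with corn oil. Sdhc and Sdhd anchor the complex in the membrane. Sdhc read 5.36, 5.06 and 5.12 with tricresyl phosphate, against 5.37, 5.33 and 5.19 with corn oil. Sdhd read 6.11, 5.90 and 6.02 with tricresyl phosphate, against 6.17, 6.13 and 6.06 with corn oil. In Sdhb, Sdhc and Sdhd tricresyl phosphate replicate 1 lay inside the corn oil range and the other tricresyl phosphate animals lay below it. Their differences were −0.10 ± 0.09 (SE), −0.12 ± 0.11 (SE) and −0.11 ± 0.09 (SE), with adjusted limma p-values between 0.827 and 0.846, the median over the complex was −0.10, or −0.06 without tricresyl phosphate replicate 2, and that of Sdhb turned to 0.0009 under quantile normalization.

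In complex III the small subunits lay lower than the large ones, a contrast noticed in the values and not tested. Uqcrc1 and Uqcrc2, the large core proteins, had differences of 0.05 ± 0.08 (SE) and 0.06 ± 0.09 (SE), and Uqcrfs1, the Rieske iron-sulfur protein, had −0.03 ± 0.10 (SE). Uqcrc1 was at 5.45, 5.36 and 5.42 with tricresyl phosphate, against 5.32, 5.36 and 5.39 with corn oil, largely the same range. The 5 small subunits were all lower at the 75th percentile scaling, from −0.21 to −0.11, while under quantile normalization 4 of the 5 were lower and Uqcr11 was at 0.01. Uqcrfs1 turned to 0.07 there. Uqcrb, known as the ubiquinone-binding protein, had 7.07, 6.85 and 6.76 with tricresyl phosphate, against 7.16, 7.10 and 7.06 with corn oil, with tricresyl phosphate replicate 1 inside the corn oil range. Uqcr10, another small subunit, had 8.18, 7.91 and 7.91 with tricresyl phosphate, against 8.35, 8.12 and 8.10 with corn oil, and overlapped in the same animal. Their differences were −0.21 ± 0.11 (SE) and −0.19 ± 0.12 (SE), each with an adjusted limma p of 0.811. All 4 Uqcrb probes were lower, from −0.23 to −0.15. The median over the complex was −0.12, and it turned to 0.0048 under quantile normalization and was −0.04 without tricresyl phosphate replicate 3.

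Cycs, which encodes the mobile carrier cytochrome c, was lower in every tricresyl phosphate animal than in any corn oil animal. Its brightest probe read 6.92, 6.67 and 6.92 with tricresyl phosphate, against 7.15, 7.16 and 6.98 with corn oil, and tricresyl phosphate replicate 2 was the lowest of the 6. The difference was −0.26 ± 0.11 (SE), or 0.835-fold, with an adjusted limma p of 0.811 and a 95% interval of −0.53 to 0.01. Its 5 probes all gave this direction, from −0.26 to −0.16, and 4 of them separated the groups. The 4 other probes share the animals, so they do not add replicates. The difference was −0.23 on the shared slide and −0.12 under quantile normalization.

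**Figure D2:**
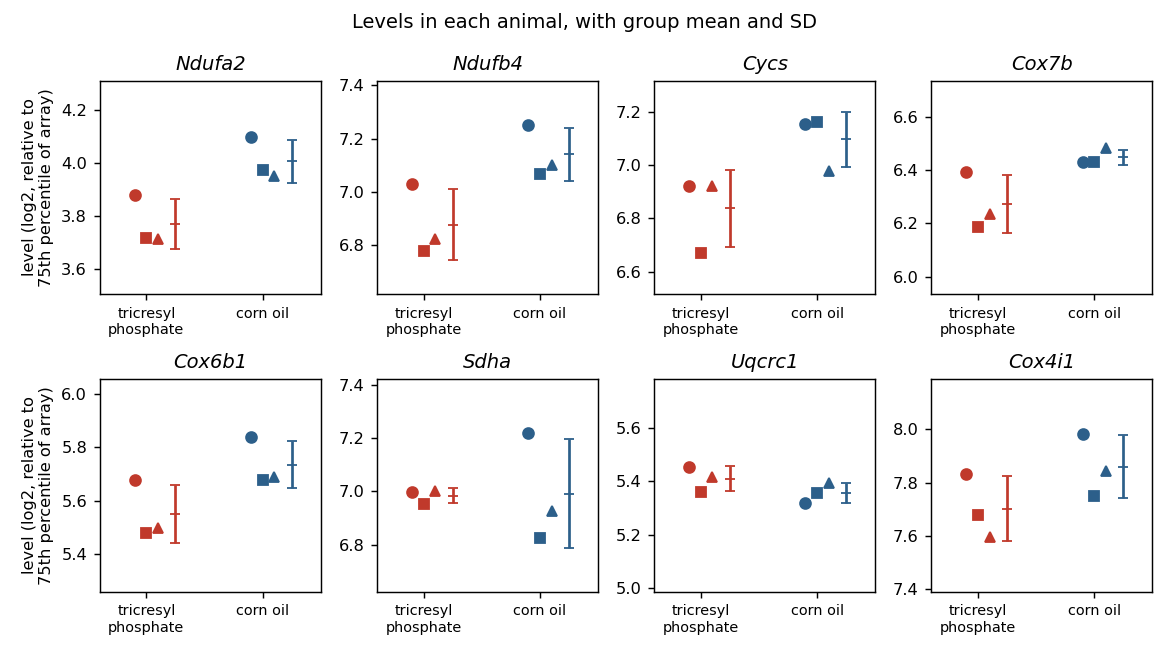
Levels (log2, relative to the 75th percentile of the array, vertical axes spanning the same width) of 8 subunit genes in the 3 tricresyl phosphate and 3 corn oil animals; circles, squares and triangles are replicates 1, 2 and 3, and bars are group mean and SD. Ndufa2, Ndufb4, Cycs, Cox7b and Cox6b1 separate the groups, while Sdha, Uqcrc1 and Cox4i1 overlap.

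Complex IV had 14 of 16 tested genes lower at the 75th percentile scaling, with a median of −0.16, against 11 of 16 under quantile normalization. Cox7b, a small subunit, had 6.39, 6.19 and 6.23 with tricresyl phosphate, against 6.43, 6.43 and 6.48 with corn oil. The corn oil animals lay close together, and all tricresyl phosphate values were below them. Cox6b1, which joins the monomers of the complex on the intermembrane side, had 5.68, 5.48 and 5.50 with tricresyl phosphate, against 5.84, 5.68 and 5.69 with corn oil, a separation of a few thousandths at tricresyl phosphate replicate 1. Their differences were −0.18 ± 0.09 (SE) and −0.18 ± 0.10 (SE), each with an adjusted limma p of 0.811. Cox7a2, the form of subunit VIIa found in liver and kidney, had 6.23, 5.95 and 5.95 with tricresyl phosphate, against 6.42, 6.17 and 6.22 with corn oil, and overlapped. Its difference of −0.23 ± 0.12 (SE) was nearly the same in both of its probes, at −0.23 each.

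Complex IV has tissue forms of several subunits, and the array gave a reading on most of them. Cox4i1, the common form of the regulatory subunit IV, had 7.83, 7.68 and 7.60 with tricresyl phosphate, against 7.98, 7.75 and 7.84 with corn oil, a difference of −0.16 ± 0.11 (SE). Cox4i2, the lung and low-oxygen form, had 2.34, 2.08 and 1.70 with tricresyl phosphate, against 2.13, 2.55 and 2.39 with corn oil, and spread more widely than Cox4i1 in both groups. Its difference of −0.31 ± 0.20 (SE) was accompanied by −0.11 at the second probe. Cox6a1, the common form of subunit VIa, had 8.66, 8.45 and 8.30 with tricresyl phosphate, against 8.71, 8.60 and 8.64 with corn oil. Cox8a, the common form of subunit VIII, had 8.18, 8.01 and 7.96 with tricresyl phosphate, against 8.26, 8.09 and 8.15 with corn oil. In both, tricresyl phosphate replicate 1 lay inside the corn oil range and the other tricresyl phosphate animals below it, and the differences were −0.18 ± 0.11 (SE) and −0.12 ± 0.10 (SE), the last turning positive under cyclic loess. Cox6b2, the testis form of subunit VIb, was detected on every array, with 3.80, 3.67 and 3.68 for tricresyl phosphate, against 3.54, 3.68 and 3.75 for corn oil, and a difference of 0.06 ± 0.10 (SE). Cox7a2l, which helps to join complexes III and IV, had 5.05, 4.82 and 4.72 with tricresyl phosphate, against 5.05, 4.93 and 4.86 with corn oil. Its groups overlapped, and its difference of −0.08 ± 0.12 (SE) turned positive under quantile normalization.

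The heart and muscle forms were detected as well. Cox6a2 read −1.28, −0.29 and −1.48 at its brightest probe with tricresyl phosphate, against −1.23, −1.27 and −1.19 with corn oil. Tricresyl phosphate replicate 2 alone lay high, and without it the difference of 0.21 ± 0.31 (SE) became −0.15. The dimmer probes of Cox6a2 differed by 0.06 and −0.38, and the last separated the groups with lower values in tricresyl phosphate. Cox8b read −1.61, −1.02 and −1.51 with tricresyl phosphate, against −1.10, −0.51 and −1.58 with corn oil, a wide overlap. The 4 striated muscle markers tested had mean levels from −3.58 to −3.42 in the tricresyl phosphate animals and from −4.50 to −3.46 in the corn oil animals. Tricresyl phosphate replicate 2 was the lowest of its group there. Of these markers 3 were in the dimmest of the 5 signal classes, so their levels are uncertain, and a part of muscle tissue was not tested. Ndufa4, which was first assigned to complex I and is now placed in complex IV, had 6.90, 6.68 and 6.77 with tricresyl phosphate, against 6.98, 6.78 and 6.78 with corn oil. Its difference of −0.06 ± 0.11 (SE) turned positive under quantile, normexp and cyclic loess scaling and on the shared slide.

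The sequence copies went different ways. Cox6c-ps1, a transcribed pseudogene, differed by −0.19 ± 0.11 (SE) at its brighter probe and by 0.12 at the other. Its parent Cox6c, a small complex IV subunit, differed by −0.17 ± 0.11 (SE). Ndufa10l1, a copy of the complex I gene Ndufa10, differed by 0.04 ± 0.11 (SE), and its 5 probes ranged from −0.003 to 0.12. Ndufa10 itself had 3.99, 3.71 and 4.03 with tricresyl phosphate, against 4.11, 4.21 and 4.08 with corn oil, a difference of −0.22 ± 0.11 (SE) with groups that did not overlap. Among the 32 subunit genes with several tested probes, 6 had probes of opposite sign.

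The same animals were high or low across most members. Corn oil replicate 1 was the highest of the 6 animals in 46 of the 59 members, or 78.0%, against 45.7% of the brightest class of genes and 26.4% of all genes. Tricresyl phosphate replicate 2 was the lowest in 30 members, or 50.8%, against 24.7% of the brightest class. Replicate 3 was the lowest in 23, or 39.0%, which is near the 38.3% of the brightest class. Tricresyl phosphate replicate 1 lay below all corn oil animals in 15 members, or 25.4%, near the 21.0% of the brightest class. Replicates 2 and 3 did so in 48 and 47 members, or 81.4% and 79.7%, against 46.2% and 52.9% of the brightest class. The mean deviation of complex I from its 6-animal mean was 0.04, −0.15 and −0.12 in the tricresyl phosphate animals, against 0.17, 0.05 and 0.02 in the corn oil animals. Tricresyl phosphate replicate 1 thus stood within the corn oil range, and the same held for the means of complexes II, III and IV.

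Slide and animal cannot be told apart for corn oil replicate 1, the only array on its slide. On the shared slide, with 3 tricresyl phosphate and 2 corn oil arrays, the median difference was −0.09 over the members, with 51 of 59 lower, and −0.05 over the brightest class, with 67.9% lower. By complex it was −0.10 for complex I, −0.08 for complex II, −0.07 for complex III and −0.09 for complex IV. The number of members lower at an unadjusted limma p under 0.05 was 0 on the shared slide, and 0 or 1 without any 1 of the other animals except tricresyl phosphate replicate 1. Without that animal it was 11, or 18.6%, against 5.18% of all genes and 4.47% of the brightest class in the same fit, and the median over members was −0.20, against −0.10 over the brightest class. The brightest class moved with the members in each animal: its mean deviation was 0.02, −0.05 and −0.08 in the tricresyl phosphate animals, against 0.09, 0.02 and −0.0002 in the corn oil animals.

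**Figure D3:**
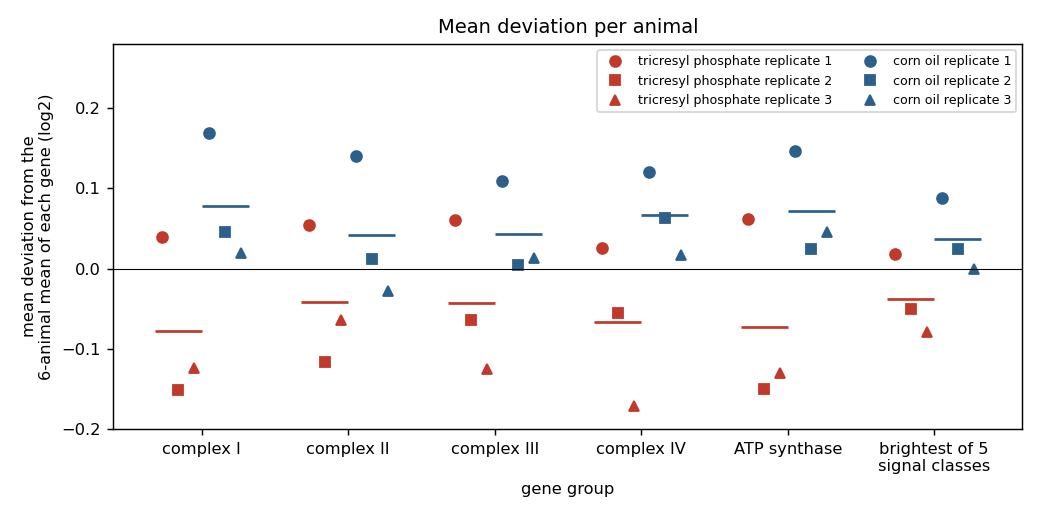
Mean deviation from the 6-animal mean of each gene (log2, vertical axis) for each complex, ATP synthase and the brightest class of all genes (horizontal axis); red symbols are tricresyl phosphate animals, blue symbols are corn oil animals, and horizontal lines are group means, at the 75th percentile scaling. Corn oil replicate 1 is the highest point in every group of genes shown, and tricresyl phosphate replicate 1 lies inside the corn oil range in each; under quantile normalization the mean differences of complexes II and III are positive.

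Scalings that equalise bright probes between arrays took away most of the difference. The median over members was −0.03 under quantile normalization and under cyclic loess, and −0.04 under normexp correction with quantile normalization, while the median of the brightest class was −0.0005, −0.00361 and −0.00187. Members lower then numbered 36, 38 and 40 of 59, against 50.2%, 51.5% and 50.8% of the brightest class. Complex I had the lowest median of the 4 complexes in these 3 settings, from −0.07 to −0.05, and complex IV lay between −0.06 and −0.03. The median of complex III lay between −0.0049 and 0.0048. Ndufa2 was at −0.16 under quantile normalization, and Ndufb4, Ndufa11 and Ndufv3 were each at −0.14.

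**Figure D4:**
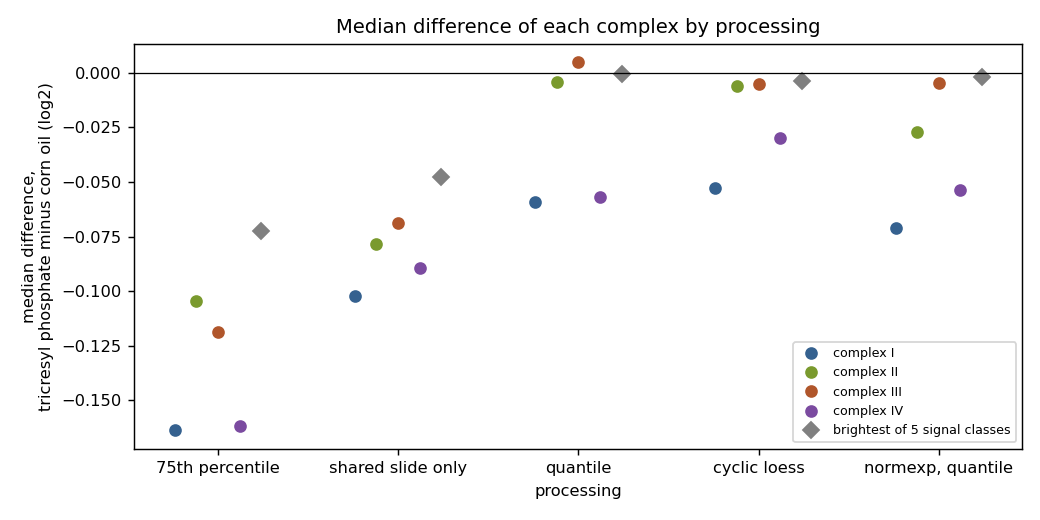
Median difference between tricresyl phosphate and corn oil animals (log2, vertical axis) of complexes I to IV and of the brightest class of all genes under 5 ways of processing (horizontal axis). Complexes I and IV lie below the brightest class in each, and complex III crosses 0 under quantile normalization.

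Lists of other nuclear genes of mitochondrial energy metabolism differed in how far they lay from 0, and none of their genes passed an adjusted limma p under 0.05. ATP synthase, the enzyme that uses the proton gradient, had 14 of 15 tested genes lower with a median of −0.17, or −0.05 under quantile normalization and −0.11 without corn oil replicate 1. Atp5mc1, a gene for its membrane ring, had 7.45, 7.24 and 7.29 with tricresyl phosphate, against 7.60, 7.49 and 7.57 with corn oil, without overlap and with a difference of −0.22 ± 0.09 (SE). Atp5mk, a small accessory subunit of the enzyme, had 6.66, 6.45 and 6.43 with tricresyl phosphate, against 6.89, 6.69 and 6.63 with corn oil, and a difference of −0.22 ± 0.12 (SE). Tricresyl phosphate replicate 1 lay inside the corn oil range for Atp5mk. Assembly factors of the chain had 31 of 37 lower with a median of −0.09, or −0.05 without corn oil replicate 1. Sdhaf1, which helps to insert the iron-sulfur clusters of complex II, had 3.77, 3.97 and 3.93 with tricresyl phosphate, against 4.28, 4.15 and 4.12 with corn oil, a difference of −0.29 ± 0.10 (SE). Coa8, a complex IV assembly factor, had 3.89, 3.71 and 3.64 with tricresyl phosphate, against 4.29, 4.05 and 3.84 with corn oil, a difference of −0.32 ± 0.14 (SE). The groups lay apart for Sdhaf1 and overlapped for Coa8.

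The mitochondrial ribosome, which translates the subunits encoded in mitochondrial DNA, had 55 of 67 genes lower with a median of −0.10, or −0.03 under quantile normalization and −0.05 without corn oil replicate 1. The share lower, 82.1%, is near the 76.0% of the brightest class, which holds 50 of the 67. Groups lay apart, lower, in 10 of the 67, or 14.9%, near the 12.6% of that class. Mrpl22, a protein of its large subunit, had 3.63, 3.49 and 3.57 with tricresyl phosphate, against 3.83, 3.85 and 3.77 with corn oil. Mrpl30, of the same subunit, had 4.76, 4.66 and 4.61 with tricresyl phosphate, against 4.98, 4.88 and 4.81 with corn oil. Neither overlapped, and the differences were −0.25 ± 0.08 (SE) and −0.22 ± 0.09 (SE). Citric acid cycle genes had 9 of 14 lower with a median of −0.04, against −0.04 over all genes and −0.07 over the brightest class, which holds 13 of the 14. The median of this list turned to 0.06 under quantile normalization and to 0.0027 without tricresyl phosphate replicate 2. Fh, fumarase, had 6.01, 5.62 and 5.85 with tricresyl phosphate, against 6.12, 5.94 and 5.98 with corn oil. Cs, citrate synthase, had 3.29, 3.14 and 3.33 with tricresyl phosphate, against 3.48, 3.30 and 3.38 with corn oil. Both overlapped between groups, with differences of −0.19 ± 0.13 (SE) and −0.13 ± 0.10 (SE). Carriers and pores had 6 of 7 lower with a median of −0.13, −0.04 under quantile normalization and −0.07 without tricresyl phosphate replicate 2. Vdac1, the outer membrane channel, had 7.20, 7.02 and 7.03 with tricresyl phosphate, against 7.47, 7.31 and 7.13 with corn oil. Ucp2, an uncoupling protein, had −0.57, −0.23 and −0.33 with tricresyl phosphate, against −1.07, −0.97 and −0.30 with corn oil. Both overlapped, through tricresyl phosphate replicate 1 for Vdac1 and corn oil replicate 3 for Ucp2, with differences of −0.22 ± 0.12 (SE) and 0.40 ± 0.22 (SE).

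Regulators of mitochondrial gene expression showed no common direction, with 6 of 14 lower and a median of 0.0045 that turned to −0.009 under median centring. Twnk, the mitochondrial DNA helicase, had 7.62, 7.51 and 7.35 with tricresyl phosphate, against 7.79, 7.57 and 7.73 with corn oil, a difference of −0.20 ± 0.11 (SE) with overlap. Polg, the mitochondrial DNA polymerase, had 1.27, 1.36 and 1.32 with tricresyl phosphate, against 1.08, 1.22 and 1.23 with corn oil, a difference of 0.14 ± 0.09 (SE) without overlap. Genes encoded in mitochondrial DNA were not analysed here.

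Markers of the cells that make up the cortex are given beside these values. Proximal tubule markers had 5 of 8 lower with a median of −0.07, and their mean level spanned 6.81 to 6.91 in the tricresyl phosphate animals and 6.84 to 7.02 in the corn oil animals, the highest again being corn oil replicate 1. The blood markers Hbb, Alas2 and Epb42 were lower in every tricresyl phosphate animal than in any corn oil animal at the 75th percentile scaling. Such a separation was seen in 7.94% of all genes and 12.6% of the brightest class. Of these 3 genes 1 was in the dimmest of the 5 signal classes. The median difference was −0.34, with no adjusted limma p under 0.05. Their mean level spanned 0.87 to 1.07 in the tricresyl phosphate animals and 1.21 to 1.35 in the corn oil animals. Collecting duct markers had 2 of 6 lower, and their mean level spanned 4.04 to 4.22 in the tricresyl phosphate animals and 3.89 to 4.16 in the corn oil animals. Thick ascending limb markers had 2 of 4 lower. Their mean level was 2.52, 2.89 and 3.00 with tricresyl phosphate, against 2.84, 2.80 and 2.70 with corn oil, so tricresyl phosphate replicate 1 was the lowest there. Lower were also 3 of 4 podocyte, 3 of 4 endothelium, 2 of 4 leukocyte and 0 of 2 distal tubule markers. The part of cell composition in the members' differences was not tested. Members varied about their group means by a median residual SD of 0.12, against 0.11 in the brightest class and 0.17 over all genes.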

How the data were processed

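RNA of each animal's renal cortex was hybridised to 1 Agilent 1-colour array. The deposited scanner files hold intensity values that, per the file headers, were extracted with Agilent Feature Extraction 10.7.1.1. The processed signal was already background-corrected there, and the headers name build rn4, from which no coordinates were used. The authors' value table holds each array's processed signal divided by 1 number, so its values are deposited intensity values on a linear scale, with column medians of 0.1094 to 0.1152 and no centring by gene. Deposited flags for outlier, control and well-above-background spots were used.

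Control spots were dropped and 77 outlier spots set missing. Log2 processed signals, computed from the deposited intensities, were centred on each array's 75th percentile. Of 61537 probes, 43099 passed a filter that asks for the well-above-background flag on 3 arrays or more. Probe accessions were named through the RefSeq gene table, which gave 28206 probes 1 symbol and 33331 none. A gene was represented by its kept probe with the highest mean level, giving 31637 genes, 12432 of them with a symbol. Limma 3.58.1 in R 4.3.3 compared the groups, with Benjamini-Hochberg adjustment over all of these genes at 0.05. Each array is a separate animal, and the 3 animals a group limit the precision. The code was tested on simulated data.

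The members and lists were chosen with earlier results of these data known. Genes with values in every animal were those with the smallest unadjusted limma p (5 in complex I, 2 in complex III, 4 in complex IV), all of complex II, Cycs, tissue isoforms, the 3 genes whose probes differ most in sign, and the 2 of smallest p from each other list. Ndufb3, Ndufa5, Ndufb7, Ndufa10 and Uqcrc1 were added after their values were seen. The values of 1 member are not reported here, and it stays in the counts and medians. Alternatives were quantile, cyclic loess and median scaling, normexp with an offset of 50 on median spot signals, the authors' table, other filters and probe rules, an intensity trend with robust variance, slide and replicate blocks, and leaving out each animal.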

Additional observations from a re-analysis of the deposited data

How the results depend on the processing

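The number of members passing an adjusted limma p under 0.05 was 0 in every alternative run, while over all genes it was 2 under normexp with quantile normalization, 2 with an intensity trend and robust variance, and 0 to 1 when 1 animal was left out. Members lower numbered 36 under quantile normalization and 51 to 55 when 1 animal was left out. Residual correlations of same-numbered animals were 0.0864, −0.0506 and −0.0438, against −0.0776 to 0.120 for the other pairs. The main fit therefore used no pairing. Residuals centred within groups of 3 animals constrain these values, so they cannot exclude a pairing. With the replicate number as a block 55 members were lower, with a median of −0.150 over members. In that fit 6 members were lower at an unadjusted limma p under 0.05, or 10.2%, against 4.20% of all genes and 2.97% of the brightest class. The number was 2 without the block and 10 with an intensity trend and robust variance. When 1 animal was left out the medians were −0.203 to −0.0853 over members, −0.225 to −0.102 in complex I, −0.152 to −0.0591 in complex II, −0.150 to −0.0409 in complex III and −0.209 to −0.0893 in complex IV. Median differences under quantile, cyclic loess and normexp scaling, in that order, were −0.0283, −0.0286 and −0.0447 over all members. They were −0.0592, −0.0526 and −0.0709 in complex I, 0.00482, −0.00492 and −0.00484 in complex III and −0.0567, −0.0297 and −0.0535 in complex IV. Complex II had −0.00438 under quantile and −0.00617 under cyclic loess normalization. In the same order they were −0.0550, −0.0303 and −0.0504 in ATP synthase, −0.0263, −0.0320 and −0.0256 in the mitochondrial ribosome, −0.0397, −0.0437 and −0.0149 in carriers and pores, and 0.0596, 0.0614 and 0.0716 in the citric acid cycle, and assembly factors had −0.0346 under normexp. The citric acid cycle median was 0.00200 with the slide as a block and −0.0687 to 0.00273 when 1 animal was left out. That of the regulators was −0.00880 under median centring, 0.0571 with the mean of probes and −0.0130 to 0.0152 when 1 animal was left out, where that of carriers and pores was −0.171 to −0.0735. Mean levels per animal differed under the 3 scalings by −0.0527, −0.0564 and −0.0497 in complex I, 0.0230, 0.0190 and 0.00494 in complex II, 0.0132, 0.0119 and −0.00151 in complex III, and −0.0498, −0.0418 and −0.0445 in complex IV. Signs turned under them for the core subunits of complex I at 0.0267, 0.0230 and 0.0323, for Ndufa4 at 0.0580, 0.0578 and 0.0748 and for Sdha at 0.126, 0.117 and 0.113. Sdha also turned with the mean of probes at 0.0432 and with the slide block at 0.108, and spanned −0.0885 to 0.108 when 1 animal was left out. Ndufa4 was at 0.00455 with the slide block and spanned −0.121 to 0.00455. Cox6a2 turned to −0.0361 with the mean of probes and spanned −0.151 to 0.441. Under quantile normalization Sdhb turned to 0.000888 and Cox7a2l to 0.00817, and Cox8a turned to 0.0288 under cyclic loess. The cause was not tested. The slide block uses the same 5 arrays as the fit without corn oil replicate 1.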
